A study of Arabidopsis thaliana with 4 samples.

Results

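Plates TA37 to TA51 form the longest unbroken stretch of low-scoring plates in a tiling-array map of H3K9me3, the trimethylated form of lysine 9 on histone H3, in seedlings of Arabidopsis thaliana. A tile is an array feature whose identifier gives a set (2 letters), a plate number and a well, so that TA41C06 is set TA, plate 41, row C, column 6. The stretch holds 1352 scored tiles of 21716 in the whole table, or 6.23% of them. The members were selected on these same scores: in each of the 15 plates the median of the tiles lay over 0.2 below that of the whole table in both chromatin preparations, and no longer run of consecutive plates met this limit. The low level of the plates is therefore a description of how they were chosen and not a finding. The same holds for every count and median below, and no test sets the block against other plates.

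Chromatin came from untreated Col-0 seedlings, a standard laboratory strain, 10 days old and kept in liquid culture at 22 °C under 16 h of light a day, per the labels. DNA immunoprecipitated with an H3K9me3 antibody was set against input DNA on 2-colour arrays, so that all 4 arrays belong to 1 group with no second genotype or treatment. The labels name 2 preparations, I and II, each hybridised on a pair of arrays with the dyes swapped. The labels name seedlings and no single organ or cell type.

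Within a dye-swap pair both arrays carried the same deposited scores, so a pair gives 1 replicate (n = 2 preparations). Preparation I had a median deposited score of -1.09 over all tiles and preparation II of -1.35. Each preparation was centred on its own median, and all scores below are distances from it in the units of the deposited score. No source used here gives the log base of the score or says which DNA stands on top of the ratio, and "low" and "high" refer to the score alone. Since 0 tile identifiers matched a name in the RefSeq gene list for Arabidopsis, no tile is given a gene, chromosome, coordinate or sequence.

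Methylation of H3 lysine 9 is set by histone methyltransferases and read by proteins that bind the methylated tail. In animals the trimethylated form is a hallmark of silent, condensed chromatin. In Arabidopsis the repeats and transposons of condensed chromatin carry mostly the dimethylated form, and trimethylation has been reported chiefly from transcribed genes. Where in the genome these plates lie was not determined here.

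Most tiles of every plate scored below 0 in each preparation. In preparation I the tiles of TA37 to TA51 had a median of -0.35, with the middle 50% of tiles between -0.52 and -0.18, against a median of 0.04 on all other plates. In preparation II the median was -0.53, with the middle 50% between -0.67 and -0.37, again against 0.04 on all other plates. Both preparations were below 0 at 1174 tiles (86.8%), and both were above 0 at 95 (7.03%). On all other plates these shares were 39.8% and 45.1%. The middle 50% of mean scores spanned 0.30 on these plates and 0.78 on all other plates. On plates TA20 to TA28 and TC17 to TC25, other long low stretches, it spanned 0.44 and 0.32.

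The distribution was a narrow low body with a sparse upper tail. The 10th percentile of the mean of both preparations was -0.69 on TA37 to TA51 and -0.49 on all other plates, while the 90th percentile was -0.05 and 1.15 in the same order. The skewness was 2.66 on these plates and 0.93 on all other plates. On TA20 to TA28 it was 1.99 and on TC17 to TC25 it was 1.23. Of the 2172 tiles with the lowest mean scores in the table, those at -0.52 or less, 474 (21.8%) lay here, which is 35.1% of the block. Of the 2172 with the highest, those at 1.11 or more, 12 (0.552%) did, which is 0.888% of the block.

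By size, 12 tiles of the block (0.888%) had a mean score of 1 or more, beside 11.9% of all tiles. At the other end 6 tiles (0.444%) were at -1 or less, beside 0.327% of all tiles. The lower count was 18 in preparation II alone and 7 in preparation I alone. A limma test of the mean score against 0, fitted on all 21716 tiles, placed 977 tiles of the block (72.3%) below the median and 54 (3.99%) above it, at a Benjamini-Hochberg adjusted p under 0.05. Over the whole table the test called 25% of tiles lower and 31.6% higher. With each preparation centred on its mode in place of its median, 541 tiles of the block were called lower. Without centring, which sets the deposited scores themselves against 0, 1337 were called lower and 5 higher. A test against a size of 0.5 called 31 lower and 14 higher. Shares over the whole table are not given for these settings, so the counts cannot be set against other plates. These calls use the scores that chose the plates, and nothing is read from the difference in shares. All tiles shared 1 estimated spread, an SD of 0.20 per preparation, so that a call means a mean score farther than 0.31 from the median.

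**Figure D1:**
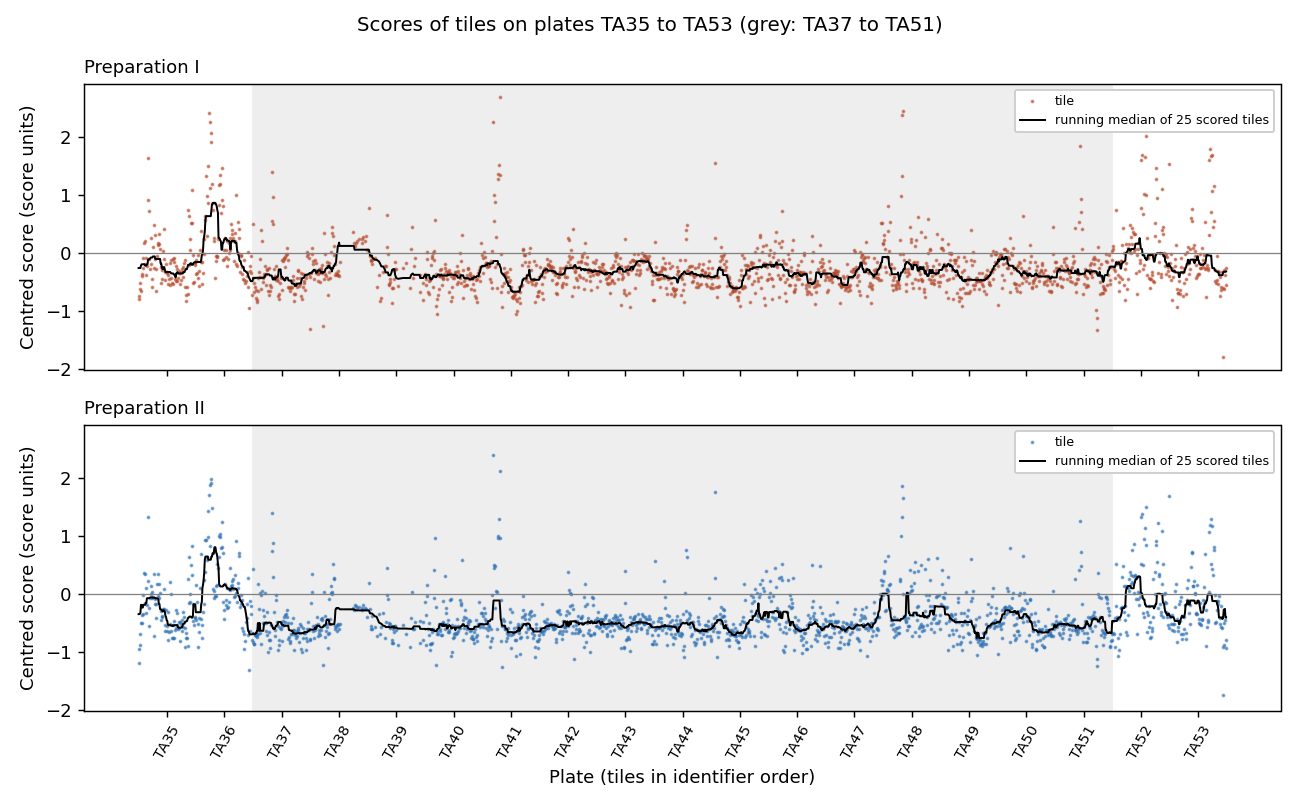
Centred score (y axis, score units) of each tile on plates TA35 to TA53 in identifier order (x axis) in preparations I and II, with the running median of 25 scored tiles as a line. The grey area marks TA37 to TA51, and the line crosses unlisted wells on TA38 and TA39 without a gap. Both preparations show a low body broken by a few narrow groups of high tiles on TA37, TA41, TA45, TA48 and TA51.

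The 15 plates were alike in level. Plate medians of the mean score ran from -0.52 on TA37 to -0.34 on TA48. In preparation I they ran from -0.43 on TA37 to -0.21 on TA38, and in preparation II from -0.63 on TA37 to -0.36 on TA48. Preparation II had the lower median on each of the 15 plates. The plate nearest to the limit was TA38, at -0.21 in I and -0.52 in II, and the next was TA48, at -0.28 and -0.36. The upper end of the plates varied more than the lower end: the 90th percentile ran from -0.28 on TA44 to 0.39 on TA48, and the 10th percentile from -0.76 on TA41 to -0.58 on TA48. The medians of 7 even-numbered plates averaged -0.41 and those of 8 odd-numbered plates -0.45. By position in the plate the medians were close, between -0.48 and -0.38 over the 8 rows and between -0.48 and -0.40 over the 12 columns.

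**Figure D2:**
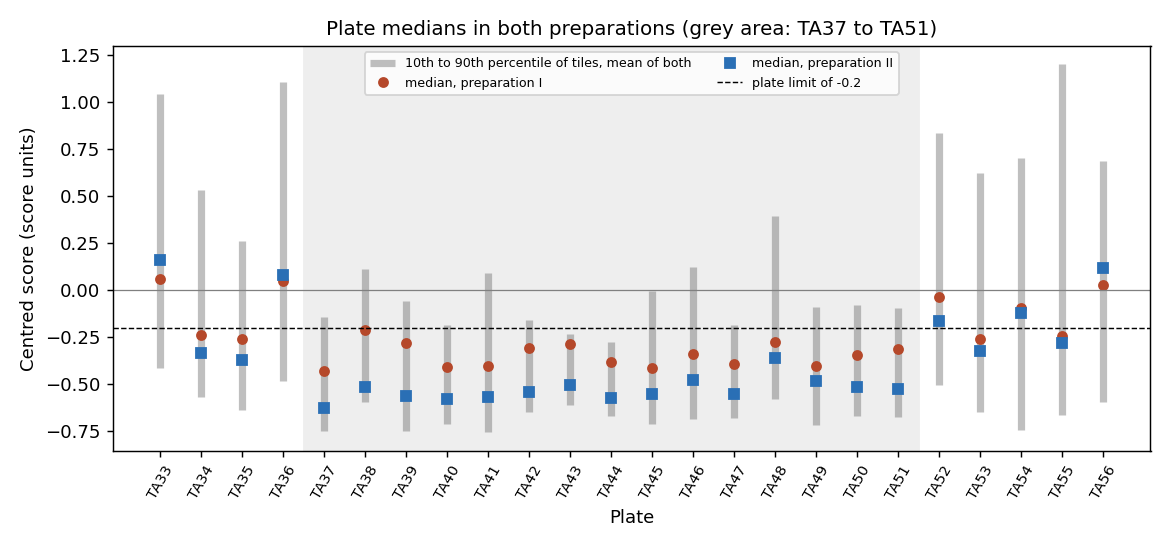
Median centred score (y axis, score units) of plates TA33 to TA56 (x axis) in preparation I (circles) and II (squares), with bars from the 10th to the 90th percentile of the mean of both. The dashed line is the limit of -0.2 that both medians had to be below. All 15 plates of the grey area lie below it, and plates TA34, TA35, TA53 and TA55 outside also do, but are cut off by TA36, TA52 and TA54.

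The same could be followed at the scale of single plate rows, which hold up to 12 tiles. Of 119 plate rows with a scored tile, 94 had a median below -0.2 in both preparations. Only row A of TA48 had a median above 0 in both, at 0.11 in preparation I and 0.17 in II. Row C of TA48, which holds a group of high tiles, had a median of -0.01 in I and 0.11 in II. The lowest running median of 25 scored tiles was centred on TA41E06, at -0.67 in both preparations. The highest was centred on TA47H12, with -0.07 in I and 0.01 in II, and of 1352 windows centred in the block none had a running median of the mean score above 0. Above -0.2 stood 54 of these windows (3.99%), centred on TA38, TA39, TA41, TA47 and TA48.

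The first edge was sharp in plate medians and less so in tiles. Plate TA37 had a median of -0.43 in preparation I and -0.63 in II, while TA36, just outside, had 0.05 and 0.08. The first tile inside, TA37A01, scored -0.42 in I and -0.83 in II, and the last tile outside, TA36H12, scored 0.50 and 0.43. All of the first 12 tiles inside, TA37A01 to TA37A12, had a mean score below 0, and their median was -0.68. Of the 12 tiles before them, TA36H01 to TA36H12, 10 were below 0, with a median of -0.36. Within TA36 the median of the mean score was 0.19 over rows A to F and -0.34 over rows G and H. Before this edge the running median of the mean score last stood above -0.2 at TA36G07, 17 scored tiles before the first tile of TA37. Low scores were thus already present in the last 2 rows of TA36.

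The last edge was shallower. Plate TA51 had a median of -0.32 in preparation I and -0.53 in II, and TA52 had -0.04 and -0.16. The last tile inside, TA51H12, scored -0.11 in I and -0.69 in II, close to the first tile outside, TA52A01, with 0.04 and -0.80. The last 12 tiles inside had a median of -0.24 in preparation I and -0.33 in II, and the first 12 outside -0.17 and -0.68. Over rows A and B of TA52 the median of the mean score was -0.32, and over rows C to H it was 0.01. Past this edge the running median of the mean score first stood above -0.2 at TA52B10, 22 scored tiles past the last tile of TA51. Low scores thus ran on past the last plate boundary, more so in preparation II than in I.

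High tiles inside the block came in a few narrow groups. The 12 tiles at 1 or more lay on 5 of the 15 plates, 6 of them on TA41, 3 on TA48 and 1 each on TA37, TA45 and TA51. At a limit of 0.5 there were 30 tiles on 10 plates, 2.22% of the block, beside 23.9% of all tiles. They lay in 16 stretches of consecutive wells, of which 11 were single tiles and the longest held 5. The mean length of these stretches was 1.88 tiles, and 2.72 tiles on all other plates, where the longest held 21.

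The strongest group was on TA41. Its first part was led by TA41B07, which scored 2.25 in preparation I and 2.40 in II (mean 2.32 ± 0.10, SD, n = 2). The tile before it, TA41B06, had a mean of 0.0014, and the 3 tiles after it, TA41B08 to TA41B10, had means of 0.53, 0.73 and 0.68. After a dip of 4 tiles, of which TA41C01 was at -0.61, a run of 5 tiles at 1 or more followed. In it TA41C03, TA41C04 and TA41C05 scored 1.27, 1.36 and 1.52 in preparation I and 0.965, 0.999 and 1.29 in II. The peak, TA41C06, was the highest tile of the block in preparation I and in the mean, at 2.69 in I and 2.12 in II (mean 2.41 ± 0.41, SD, n = 2). In preparation II TA41B07 was the highest, at 2.40. The last of the run, TA41C07, scored 1.34 and 0.96. The scores then dropped within 3 tiles to one of the lowest tiles of the block, TA41C10, at -0.93 in I and -1.26 in II.

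A second group, TA48C07 to TA48C10, held 4 tiles and was highest at TA48C10 in preparation I and at TA48C09 in II. TA48C07 had a mean of 0.99. TA48C08 scored 1.32 in preparation I and 1.34 in II, TA48C09 2.37 and 1.87, and TA48C10 2.45 and 1.66. The next tile, TA48C11, was at -0.02 in I and -0.01 in II, so the side towards higher identifiers was an abrupt step in both preparations. The climb towards the peak was slower, with TA48C05 at 0.12 and TA48C06 at 0.23 in the mean.

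The other 3 groups were smaller. On TA37, TA37C08 scored 1.39 in preparation I and 1.40 in II, a difference smaller than at any other tile of the 12. It followed directly on TA37C07, at -0.56 in the mean, and was followed by TA37C09 at 0.65 and TA37C10 at 0.92. On TA45, TA45A07 stood alone at 1.55 in I and 1.75 in II, between TA45A06 at -0.49 and TA45A08 at 0.27 in the mean. On TA51, TA51D07 scored 1.84 in I and 1.25 in II, after TA51D06 at 0.47 and before TA51D08 at 0.60 and TA51D09 at 0.83.

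**Figure D3:**
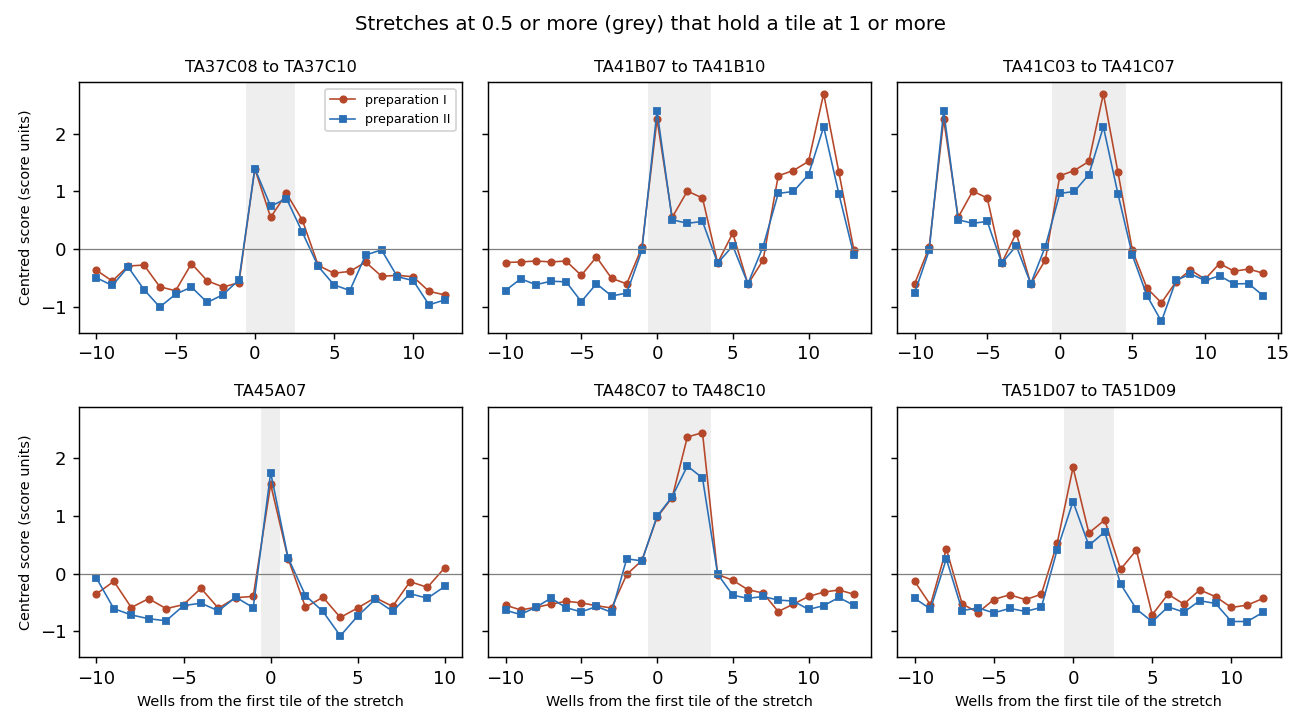
Centred scores (y axis, score units) in preparation I (circles) and II (squares) around the 6 stretches of tiles at 0.5 or more (grey) that hold a tile at 1 or more, plotted by wells from the first tile of the stretch (x axis). Within each grey stretch both preparations peak at the same tile or 1 tile apart, and most of the surrounding tiles are below 0. The panels of TA41 each show both high stretches of that plate, and there preparation I is highest at TA41C06 and II at TA41B07.

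From the second tile outward the medians around these high tiles were as low as the block's median of -0.44, though single tiles were higher. Beside the 6 stretches with a tile at 1 or more, the first tiles outside had a median of -0.03 over 12 positions. The second tiles had a median of -0.44 and the third of -0.61, both with a highest value of 0.17. Farther out the positions include tiles of the other high stretch on TA41, up to 1.18. The first tiles outside ranged between -0.56 and 0.47, so that some groups ended in a step and others in a short shoulder. The preparations differed in height at some peaks, with I above II by 0.79 at TA48C10, 0.59 at TA51D07 and 0.58 at TA41C06, and II above I by 0.15 at TA41B07 and 0.20 at TA45A07.

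The lowest tiles were scattered. TA51F11 scored -1.33 in preparation I and -1.24 in II (mean -1.29 ± 0.064, SD, n = 2), and its neighbour TA51F12 -1.13 in both. The tile after that pair, TA51G01, was at 0.23 in the mean. TA38B10 scored -1.27 in I and -1.22 in II, between tiles at -0.31 and -0.49. TA40B07, at -0.91 in I and -1.22 in II, stood directly after a high tile, TA40B06, with a mean of 0.77.

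Long unbroken low stretches made up much of the block. Runs of 20 or more consecutive wells with both preparations below 0 held 695 tiles, 51.4% of the block, in 19 runs. All other plates had 23 such runs with 727 tiles, 3.57% of theirs, 9 of them on plates TC17 to TC25 and 3 on plates TA20 to TA28. Such runs held 39.8% of the tiles of TC17 to TC25 and 11.1% of those of TA20 to TA28. The longest run went from TA42G07 to TA43D11 and held 65 tiles, with a mean of -0.34 ± 0.17 in preparation I and -0.52 ± 0.18 in II (SD across tiles). It was also the longest in the whole table, followed by 2 runs of 62 tiles, one of them TA41G10 to TA42D11 in the block and the other TC17D01 to TC18A02 outside it. When the mean of both preparations had to be below 0, the longest run was TA46H04 to TA47H09, with 102 tiles. By that rule runs of 20 or more held 65.2% of the block, 69.2% of TC17 to TC25 and 30.1% of TA20 to TA28. Plates TA42, TA43 and TA47 held no tile at 0.5 or more, and neither did TA38 and TA46.

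The profile repeated between the preparations, with an offset. Over the 1352 tiles of the block the preparations correlated with a Pearson's r of 0.81 and a Spearman's rho of 0.67, given as a description, since the tiles share arrays. Without the 5% of tiles at each end of the mean score r was 0.56. On single plates r ran from 0.63 on TA43 to 0.95 on TA41, the plates with the smallest and the largest spread of mean score between tiles (SD 0.17 and 0.60). The SD of the difference between the preparations was 0.22 in the block and 0.28 on all other plates. The correlations were higher on all other plates, with r = 0.92 and rho = 0.88. Among tiles with a mean score between -0.7 and -0.2, r was 0.23 in the block and 0.07 on all other plates.

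Preparation II scored lower than preparation I at 1025 tiles of the block (75.8%), and at 57.8% of tiles on all other plates. The median of I minus II was 0.17 in the block and 0.05 on all other plates. Among tiles of a like level, with a mean score between -0.7 and -0.2, the median was 0.19 over 983 tiles of the block and 0.03 over 5708 tiles elsewhere. Plates TC17 to TC25 had a median difference of 0.18 over all tiles, and plates TA20 to TA28 one of 0.07. Each preparation has 1 value per tile, so whether the preparations differ at a tile could not be tested. The size of the offset depends on the centring: with each preparation centred on its mode the median of I minus II was 0.24 in the block and 0.12 on all other plates.

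The offset was uneven along the block and alike over a few wells. By plate it ran from 0.01 on TA48 to 0.29 on TA38. By plate row the median of I minus II was above 0 in 103 of 119 rows. The difference at a tile correlated with that at the next tile with r = 0.44 over 1322 pairs, against r = 0.31 on all other plates. On plates TA20 to TA28 r was 0.46 and on TC17 to TC25 it was 0.26. In the block this r was 0.29 at 2 wells, 0.16 at 3 wells and 0.09 at 6 wells. The tiles with the largest differences were TA51D11, at 0.41 in I and -0.61 in II, TA46C03, with a difference of 0.83 around a mean of -0.59, and TA40B01, at -0.05 and -0.84.

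**Figure D4:**
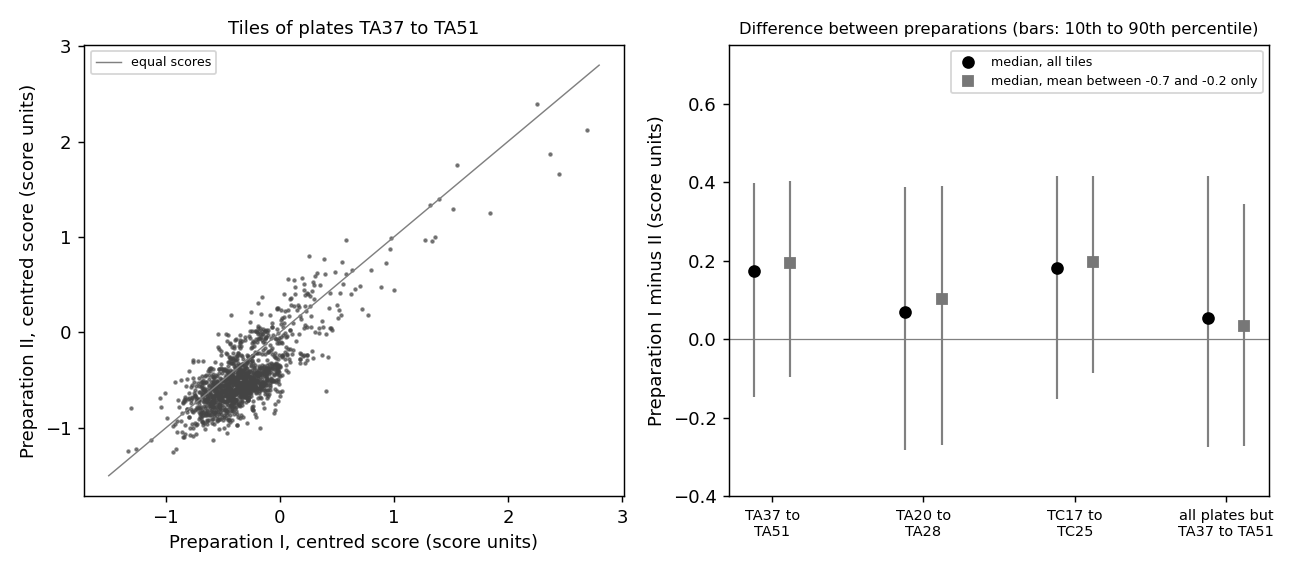
Left, centred scores of the 1352 tiles of TA37 to TA51 in preparation II (y axis) against preparation I (x axis), in score units, with the line of equal scores. Right, median of preparation I minus II (y axis, score units) with bars from the 10th to the 90th percentile of tiles, for all tiles (circles) and for tiles with a mean score between -0.7 and -0.2 (squares): 0.17 and 0.19 on TA37 to TA51, against 0.05 and 0.03 on all plates but these.

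Plates TA38 and TA39 carried gaps. Of 1440 wells on the 15 plates, 1352 have a scored tile here, and the other 88 were not analysed here. All 88 belong to TA38 (34 wells) and TA39 (54 wells), while the other 13 plates were complete. The longest gap was 22 wells, TA38E03 to TA38F12. The wells of TA38G and TA38H and most of TA39 were a patchwork of scored and unlisted wells.

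Directly after the longest gap stood a stretch unlike its surroundings, chosen here after its values were seen. The 12 scored tiles from TA38G01 to TA38H12 lay above 0 in preparation I and below 0 in preparation II without exception. In preparation I they averaged 0.21 ± 0.082, between 0.06 and 0.37, and in preparation II -0.25 ± 0.054, between -0.39 and -0.19 (SD across 12 tiles). The difference of I minus II was 0.46 ± 0.073 across them, between 0.31 and 0.60. These 12 tiles made up 12 of the 53 tiles of the block with I above 0 and II below it, where 30 tiles showed the opposite.

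The scores of this stretch were also even from tile to tile. The stretch was chosen with these values in view and has unlisted wells between its tiles. Its rank among windows is therefore a description and not a test. Over windows of 12 scored tiles the median SD across tiles was 0.24 in preparation I and 0.25 in II within the block, and 0.50 and 0.45 over the whole table. In preparation II only 7 of 21661 windows had a smaller SD than this stretch, and all 7 were overlapping windows on TA42, between TA42A10 and TA42C03. In preparation I 45 windows had a smaller SD, 28 of them in the block. The tightest window of TA42, from TA42B03 to TA42C02, averaged -0.26 in I and -0.54 in II, with an SD across tiles of 0.085 and 0.034. The tightest in preparation I, TA45C08 to TA45D07, averaged -0.62 in I and -0.67 in II, with an SD of 0.051 and 0.072. Without the 12 tiles the block's median score was -0.44 and its median of I minus II 0.17, as with them.

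**Figure D5:**
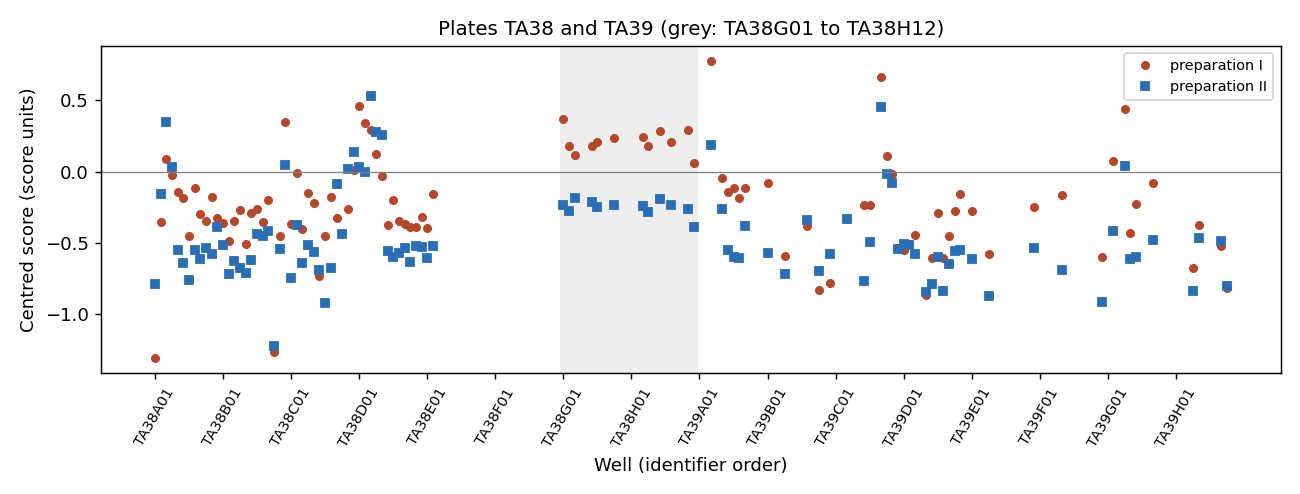
Centred scores (y axis, score units) of the scored tiles of plates TA38 and TA39 in preparation I (circles) and II (squares) by well (x axis). Wells with no point were not analysed here. In the grey stretch, TA38G01 to TA38H12, the 12 tiles lie between 0.06 and 0.37 in I and between -0.39 and -0.19 in II.

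Neighbouring tiles were alike inside the block, over a short range. Between tiles in adjacent wells the mean scores correlated with r = 0.53 over 1322 pairs, against 0.66 on all other plates. On plates TA20 to TA28 this r was 0.65 and on TC17 to TC25 it was 0.39. In the block the correlation was 0.35 at 2 wells, 0.22 at 3 wells, 0.05 at 6 wells and 0.07 at 12 wells. On all other plates these values were 0.40, 0.27, 0.18 and 0.13. A tile in preparation I correlated with the next tile in preparation II with r = 0.41. Without the high tiles the likeness remained: among tiles under 0.5, r was 0.39 for the next well in the block and 0.46 on all other plates. All are correlations across tiles, which are not independent replicates.

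Of the other long low stretches, plates TC17 to TC25 were closest in level to TA37 to TA51. Their median was -0.33 in preparation I and -0.53 in II over 804 tiles, and 86.4% of tiles were below 0 in both. They differed in the few highest tiles: 3 tiles (0.373%) were at 1 or more, each alone, beside 0.888% of TA37 to TA51. The highest mean score was 1.18, where TA37 to TA51, with more tiles, reached 2.41. Below that the upper part was alike, with 7.21% of tiles above 0 in both and a 90th percentile of the mean of -0.03, beside 7.03% and -0.05. Plates TA20 to TA28, also 804 tiles, had a median of -0.31 in I and -0.39 in II. There 33 tiles (4.10%) were at 1 or more, and 74.4% were below 0 in both preparations. These plates were chosen by the same limit on the same scores, and the differences between the 3 stretches were not tested.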

How the data were processed

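The deposited series table gives 1 signed score per feature and array for 4 two-colour arrays of 2 chromatin preparations. No source used here says how the authors made these deposited scores (background correction, normalization, log base, direction). They were taken as a score of unknown scale and no fold change is given. Columns of a dye-swap pair were identical and were averaged to 1 replicate, so a dye effect could not be estimated. Each preparation was centred on its median over 21716 scored tiles of sets TA, TB, TC, TD and PD. Tiles were ordered by plate, row and column, and a run ends at a well with no score.

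Each tile's average over the preparations was set against 0 in limma 3.58.1 under R 4.3.3 (lmFit, eBayes, two-sided, Benjamini-Hochberg over all tiles), after a check on simulated data. The prior degrees of freedom came out infinite, so that all tiles shared 1 variance. Its p-values reflect only the spread between 2 preparations, which the labels do not call separate cultures. Spot brightness was not used here, so weak spots could not be set aside, and the number of arrays limits the precision. Other values were computed with Python 3.11.15, numpy 2.4.6, pandas 2.3.3 and scipy 1.17.1.

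The members, the tests and the alternatives (centring, scaling, sign, variance model, thresholds, preparations, plates) were chosen with earlier results of these data known. Tiles named are those at 1 or more with their neighbours, the 3 lowest, the 3 with the largest difference between preparations, those at the edges and the ends of the longest runs. Further tiles were added with their values in view.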

Additional observations from a re-analysis of the deposited data

How the results depend on the processing

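Of the values recomputed under another setting, 25 stayed within 1.5 times the count or within the spread between preparations, 26 were counted as moved and 1 changed sign. For the agreement of preparations and for the median I minus II no such limit was applied, and each alternative was counted as moved. The outcome of turning the sign is fixed in advance. Turning the sign gave a block median of 0.44 in place of -0.44 and exchanged the counts, to 54 lower and 977 higher by limma, and to 6 tiles at 1 or more and 12 at -1 or less. Mode centring gave a median of -0.29, 541 tiles called lower, 2 tiles at -1 or less and a median I minus II of 0.24. Equal scaling gave a median I minus II of 0.15 and tiles between -0.7 and -0.2 gave 0.19. The treat test against 0.5 called 31 tiles lower and 14 higher. Without centring 1337 were called lower and 5 higher. A minimum size of 0.5 gave 30 high tiles (2.22%, beside 23.9% of all tiles) and 523 low tiles (38.7%, beside 11.2% of all tiles). Shares over the whole table are not given for the counts under the other settings, so those counts cannot be set against other plates. Leaving out 1 preparation gave 7 to 18 tiles at -1 or less, a TA51 minus TA52 difference of plate medians of -0.36 to -0.28 (-0.27 in the mean of both), and a neighbour correlation of 0.516 to 0.521 (0.527 in the mean). That correlation was 0.060 with wells taken by column, 0.51 with plate medians subtracted and 0.39 for tiles under 0.5. The agreement of preparations was 0.56 without the 5% at each end and 0.69 for tiles under 0.5. The longest low run was 102 tiles by the mean and 112 with a limit of 0.2. The settings for tiles under 0.5 and for I minus II were chosen after seeing the data. With 1 preparation left out no limma test was possible, since no residual degree of freedom remains. No paired analysis was possible because the series has 1 group.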
